A study of Sus scrofa with 18 samples.

Results

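Transcripts of 9 enzymes and regulators of glycogen metabolism, GBE1, GYS1, GYG1, PYGM, PHKA1, PHKG1, PPP1R3C, UGP2 and PGM1, were followed in the gastrocnemius muscle of pigs fed insect meal. They were chosen by symbol, as the probe sets that the array annotation assigns to 1 of these genes alone. This gave 10 of the 25388 probe sets on the array, 1 for each gene except PHKG1, which had a pair. A probe set is the group of short probes that together report the level of a transcript.

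The pigs were crossbred males, 5 weeks old at the start, which ate 1 of 3 diets ad libitum for 4 weeks. Group CON received soybean extraction meal and no insect meal, whereas the diets of groups IM5 and IM10 contained 5% and 10% insect meal made of Tenebrio molitor larvae (mealworms), which took the place of 50% and 100% of the soybean extraction meal at equal nitrogen. All diets were supplemented with free amino acids, and the oils of the CON and IM5 diets were adjusted to match the main fatty acids. Because insect meal is richer in protein, cellulose filled up the IM5 and IM10 diets in differing amounts, so effects of insect meal and of cellulose cannot be told apart. Arrays were hybridized for 6 pigs per group, drawn at random from the 10 pigs fed each diet, and as the labels do not say which pigs shared a pen, every test treats them as independent.

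Glycogen is the branched glucose polymer in which muscle stores fuel for contraction. Its chains start on the protein glycogenin, grow by transfer of glucose from UDP-glucose and are branched by a separate enzyme. Phosphorylase releases glucose 1-phosphate from the chain ends, and it is switched on by phosphorylase kinase when calcium or adrenaline signals that energy is needed, while protein phosphatase 1, held at the particle by targeting subunits, reverses these switches. Fast fibres depend on this store more than slow oxidative fibres do.

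The arrays looked like muscle. Across the 18 pigs, skeletal alpha-actin (ACTA1) lay between 11.81 and 12.17 on the log2 scale and the sarcomere protein MYOT between 11.37 and 12.03, whereas the liver transcripts ALB and FGB lay at 3.11 to 3.81 and 2.33 to 3.06. Array medians ranged from 4.91 to 5.00, and none of the 10 probe sets was among the dimmest 30%. The qPCR reference genes differed little between groups IM10 and CON, with a log2 difference of 0.03 for GAPDH (limma adjusted p = 0.994) and -0.10 for ATP5G1, the current ATP5MC1 (adjusted p = 0.994).

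Of the glycogen enzymes, only the branching enzyme GBE1 passed the test in the groups fed insect meal, and it failed after adjustment for the number of probe sets. It was higher in group IM10 by 1.34-fold and in group IM5 by 1.31-fold than in group CON, and groups IM10 and IM5 had nearly the same mean. The other 8 genes passed the test in no comparison, including the glycogen synthase GYS1 and the phosphorylase PYGM. A probe set was called when its fold exceeded 1.2 in either direction with a limma P below 0.05 before adjustment.

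GBE1 adds the branch points that make glycogen soluble and give it many chain ends. Its log2 level was 6.74 at the lowest, 7.12 at the median and 7.65 at the highest pig of group CON. Pigs of group IM5 had 7.14, 7.41 and 7.94, and those of group IM10 had 7.00, 7.59 and 7.82. The groups overlapped widely, since 4 of 6 IM5 pigs and 4 of 6 IM10 pigs lay within the range of group CON, and CON replicate 1 was higher than most pigs fed insect meal. All 6 IM5 pigs and 5 of 6 IM10 pigs, IM10 replicate 5 being the exception, were above the CON mean of 7.11 ± 0.33 (SD, n = 6).

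The mean of GBE1 was 7.53 ± 0.29 in group IM10 (SD, n = 6), a log2 difference from group CON of 0.42 (standard error 0.17, 95% confidence interval 0.07 to 0.78). It passed both thresholds, with a limma adjusted p of 0.991 over all probe sets. In group IM5 the mean was 7.50 ± 0.36 (SD, n = 6), which was 0.39 above group CON (interval 0.03 to 0.75, limma adjusted p = 0.998). GBE1 thus passed without correction for the number of probe sets and failed after it. Both comparisons use the same 6 CON pigs. Between groups IM10 and IM5 the log2 difference was 0.04, with an interval from -0.32 to 0.39.

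With both insect meal groups joined, GBE1 was 0.41 above group CON on the log2 scale (interval 0.10 to 0.72, limma adjusted p = 0.998), and 11 of 12 pigs exceeded the CON mean. Exact permutation of the pigs between groups (two-sided) gave p = 0.0476 for IM10 against CON, 0.0866 for IM5 against CON, 0.859 for IM10 against IM5 and 0.0231 for both insect meal groups against CON. After Benjamini-Hochberg correction over these 4 exact tests the values were 0.0952, 0.115, 0.859 and 0.0922. GBE1 is also on the list of changed muscle transcripts that the study drew up from these same arrays, so that its direction here is not independent evidence. The study also measured GBE1 by qPCR in all pigs of the trial and reported no regulation by that method. The qPCR values were not analysed here, and the array values alone do not settle whether its mRNA changed. The call between groups IM10 and CON was lost without CON replicate 2 (log2 difference 0.35), CON replicate 3 (0.37) or IM10 replicate 1 (0.37). Between groups IM5 and CON it was lost without CON replicate 2 (0.32), CON replicate 3 (0.33), IM5 replicate 1 (0.30) or IM5 replicate 6 (0.30), and also with the methods' t-test.

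Counted over the set, 1 of 10 probe sets was called between groups IM10 and CON, where 2.29% of all probe sets were called. Between groups IM5 and CON it was again 1 of 10, against 2.1% of all probe sets. Between groups IM10 and IM5 none was called, against 2.75%. With both insect meal groups set against group CON, 1 of 10 was called, against 1.42%. In 3 of the 4 comparisons the single call is GBE1, so the counts add nothing to its own test. No member passed at an adjusted p of 0.05, and over all probe sets 1 passed between groups IM10 and CON and 0 between groups IM5 and CON, where 939 had an unadjusted P below 0.05.

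**Figure D1:**
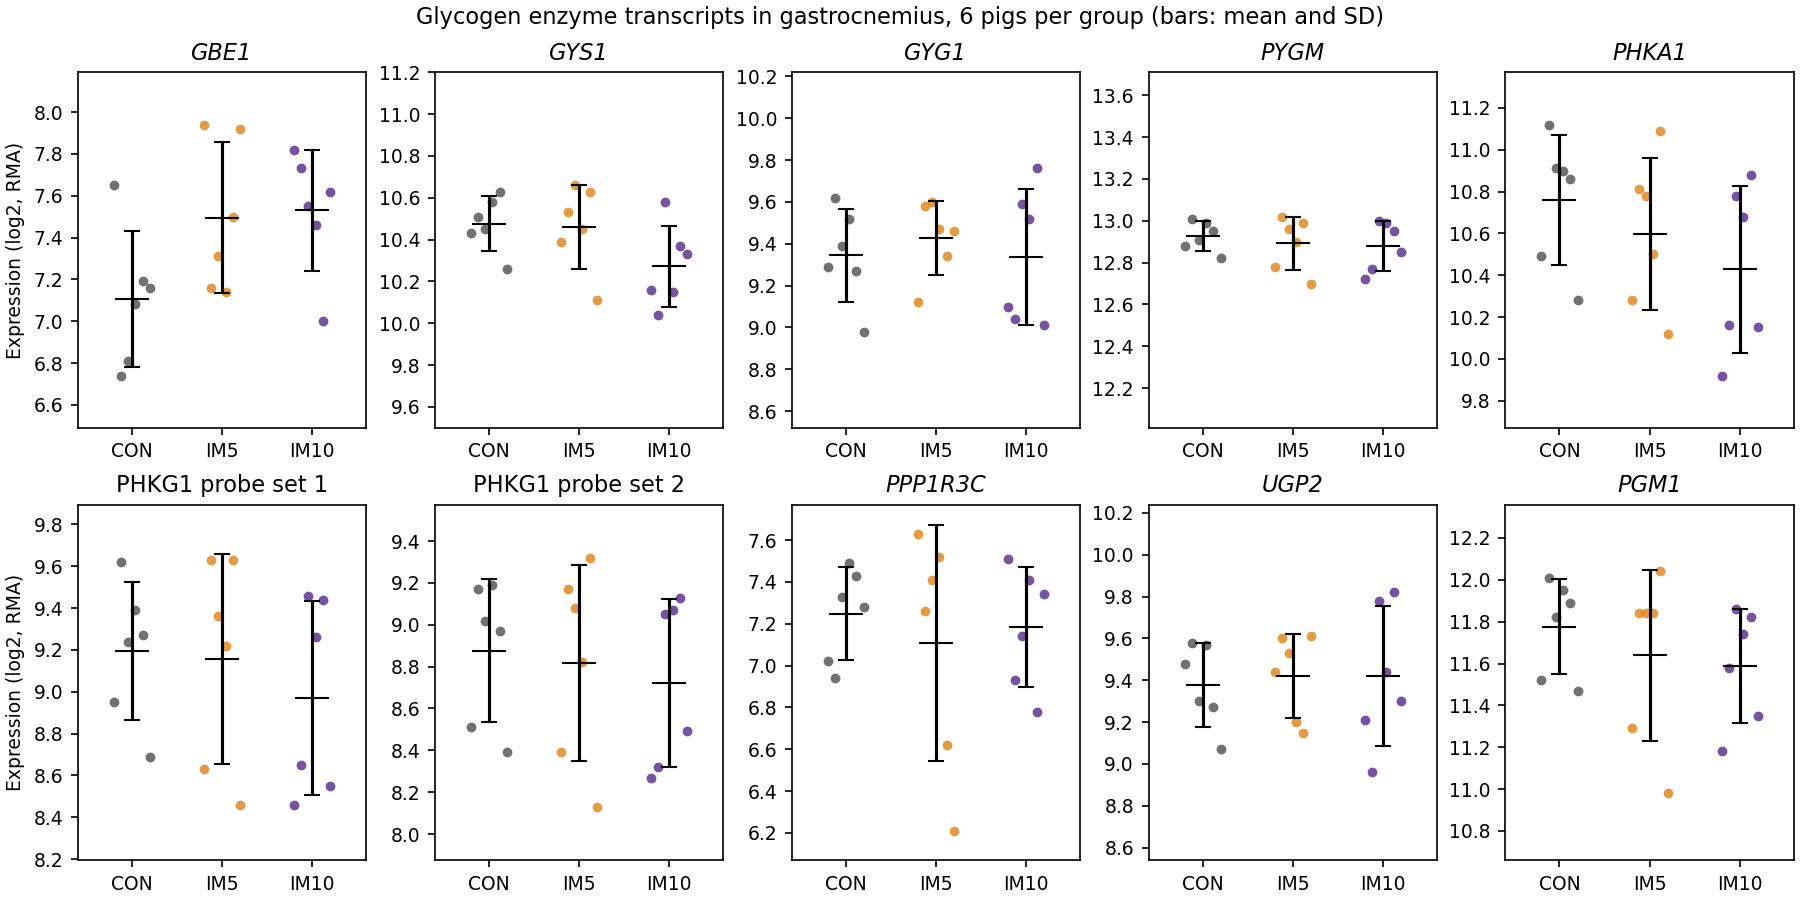
Log2 expression (RMA, vertical axes) of the 10 glycogen enzyme probe sets in each of 6 pigs per group, with horizontal bars for the group mean and error bars for the SD; each panel spans its own range of levels. GBE1 lies higher in both insect meal groups, from 7.00 to 7.94 against 6.74 to 7.65 in group CON, with overlap, while in the other panels the groups overlap over most of their range.

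The synthesis enzymes other than GBE1 did not pass the test. GYS1, the muscle glycogen synthase that lengthens the chains, had a lowest, median and highest log2 level of 10.26, 10.48 and 10.63 in group CON and of 10.11, 10.49 and 10.66 in group IM5. In group IM10 these values were 10.04, 10.24 and 10.58, and 5 of 6 pigs lay below the CON mean. The log2 difference between groups IM10 and CON was -0.21 (standard error 0.10, interval -0.42 to 0.01), which did not pass. Of its variance between pigs, 24.8% lay between groups, next to 29.5% for GBE1 and a median of 8.63% over all probe sets.

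GYG1, the glycogenin on which a glycogen particle starts, had medians of 9.34, 9.46 and 9.31 in groups CON, IM5 and IM10, within a range of 8.98 to 9.76. Its log2 difference between groups IM10 and CON was -0.01, with an interval from -0.29 to 0.27. UGP2 makes UDP-glucose, the substrate of glycogen synthase, and its medians were 9.39, 9.48 and 9.37 in groups CON, IM5 and IM10. Its difference of 0.04 between groups IM10 and CON had an interval from -0.25 to 0.33. For neither gene did the diet means differ by more than the spread between pigs, while the intervals still leave room for a change of either sign.

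PGM1 interconverts glucose 1-phosphate and glucose 6-phosphate and so serves both directions of the pathway. Its lowest, median and highest log2 levels were 11.47, 11.86 and 12.01 in group CON, 10.98, 11.84 and 12.04 in group IM5, and 11.18, 11.66 and 11.86 in group IM10. The means of groups IM5 and IM10 were 0.14 and 0.19 below that of group CON on the log2 scale, with intervals from -0.48 to 0.20 and from -0.53 to 0.15.

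PYGM, the muscle phosphorylase whose inherited loss causes McArdle disease, was the steadiest member. It ranged from 12.82 to 13.01 in group CON, from 12.70 to 13.02 in group IM5 and from 12.72 to 13.00 in group IM10. The log2 difference between groups IM10 and CON was -0.05 (interval -0.21 to 0.11), so that a change as large as that of GBE1 lies outside the interval. Its within-group SD of 0.108 was larger than that of only 4.29% of all probe sets. It was also among the brightest probe sets of arrays whose highest value was 13.58, and whether its range was compressed near the top of the scale was not tested.

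Phosphorylase kinase activates PYGM. PHKA1, its muscle regulatory subunit, had a lowest, median and highest log2 level of 10.28, 10.88 and 11.12 in group CON, 10.12, 10.64 and 11.09 in group IM5, and 9.92, 10.42 and 10.88 in group IM10. The medians were lower at each step of insect meal, but the groups overlapped widely. The log2 difference between groups IM10 and CON was -0.33 (standard error 0.19, interval -0.72 to 0.06). It passed the thresholds without CON replicate 6 (-0.43) or without IM10 replicate 5 (-0.42).

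PHKG1 is the catalytic subunit of this kinase in muscle, and its probe sets gave the same picture. The first had medians of 9.26, 9.29 and 8.96 in groups CON, IM5 and IM10 within a range of 8.46 to 9.63, and the other had medians of 8.99, 8.95 and 8.77 within a range of 8.13 to 9.32. Their log2 differences between groups IM10 and CON were -0.22 and -0.15, with intervals from -0.69 to 0.24 and from -0.59 to 0.28. The deviations of the pair from the group means correlated at r = 0.97 over the 18 pigs.

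PPP1R3C targets protein phosphatase 1 to glycogen, where it favours synthesis. Its medians were 7.31, 7.34 and 7.24 in groups CON, IM5 and IM10. The lowest IM5 pig, replicate 6, was at 6.21, well below the 6.94 and 6.78 of the lowest pigs of groups CON and IM10. The log2 difference between groups IM10 and CON was -0.06, with an interval from -0.48 to 0.35, which leaves room for a change in either direction.

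**Figure D2:**
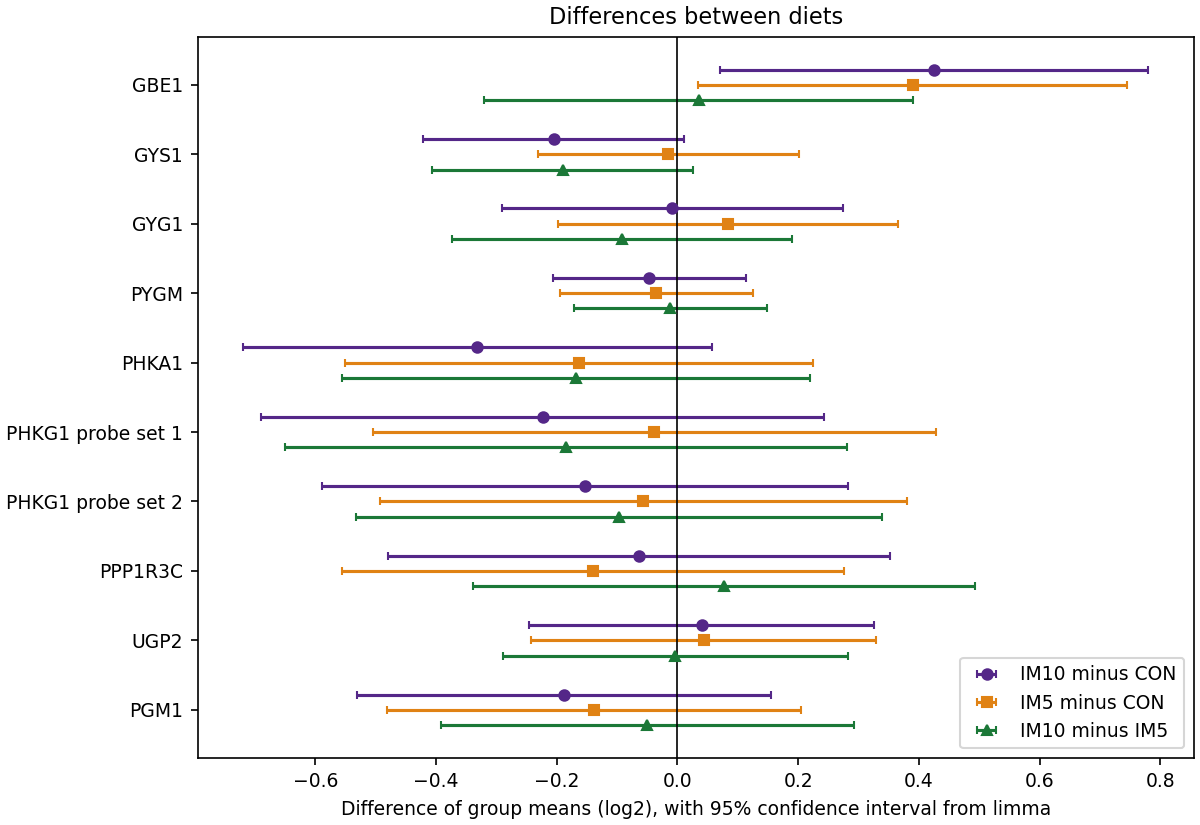
Differences between group means on the log2 scale (horizontal axis) for the 10 probe sets, as points with 95% confidence intervals from limma: IM10 minus CON, IM5 minus CON and IM10 minus IM5. The intervals of GBE1 against group CON, 0.07 to 0.78 and 0.03 to 0.75, lie above 0, and every other interval includes 0.

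The signs of the differences leaned downwards apart from GBE1. Between groups IM10 and CON, 2 probe sets had a positive and 8 a negative difference, with a median of -0.11, while the median over all 25388 probe sets was 0.00. Between groups IM5 and CON the split was 3 to 7 and the median -0.04. These counts are no test, because the transcripts vary together between pigs, as described next.

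Within each diet most of the glycogen enzymes varied more between pigs than a typical transcript, and many of them did so together. PHKG1 had a within-group SD of 0.438 in its first probe set, above that of 96.9% of all probe sets, followed by PPP1R3C with 0.388 (95.05%), PHKA1 with 0.360 (93.5%), GBE1 with 0.326 (90.8%) and PGM1 with 0.313 (89.3%). The median over all probe sets was 0.192. In each group 1 pig was the lowest for PYGM, PHKA1, PHKG1 and PGM1 alike, namely CON replicate 6, IM5 replicate 6 and IM10 replicate 1.

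Across the 18 pigs, with the group means removed, 20 of the 36 pairs of genes correlated at a Benjamini-Hochberg adjusted p below 0.05 (permutation within groups, 100000 resamples), 15 of them positively and 5 negatively. The breakdown enzymes moved almost as a unit. PHKA1 and PHKG1 correlated at r = 0.97 (rho = 0.94), and PYGM with PHKG1 at r = 0.96 (rho = 0.97). In both pairs the permutation p for r was 1e-05, the smallest that these resamples can give, and the adjusted p was 7.2e-05. PGM1 followed them with r = 0.94 to PHKG1 and r = 0.91 to PYGM and to PHKA1. The permutation treats the pigs of a group as exchangeable, although replicates 1 and 6 had the lowest PHKG1 levels in each group. Structure by replicate number is therefore not allowed for in these p-values.

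GYS1 belonged to the same group of transcripts, although it works in the opposite direction. The 10 pairs among PYGM, PHKA1, PHKG1, PGM1 and GYS1 had r from 0.73 to 0.97 with adjusted p of at most 0.00485. They stayed at r = 0.61 or above when the 2 pigs farthest from the median of the first gene were left out, and at 0.46 or above within each diet group. GYG1 correlated positively with PYGM, PHKA1, PHKG1 and PGM1 (r from 0.61 to 0.78). These values were 0.84 to 0.96 within groups CON and IM10 but 0.31 to 0.47 within group IM5. With UGP2, GYG1 correlated at r = 0.79 (rho = 0.81, adjusted p = 0.00388), with values of 0.90 in groups CON and IM10 and 0.34 in group IM5.

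GBE1 went the other way. It correlated negatively with PHKG1 (r = -0.74, rho = -0.69, permutation p = 0.00129, adjusted p = 0.00464), PGM1 (r = -0.74), PHKA1 (r = -0.70), PYGM (r = -0.68) and GYG1 (r = -0.64), all with an adjusted p below 0.05. Its correlation with PHKG1 was the same without the 2 farthest pigs, and was -0.61, -0.83 and -0.76 in groups CON, IM5 and IM10. With GYS1 the correlation of r = -0.43 did not pass (adjusted p = 0.141), and PPP1R3C passed with no other member.

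The levels of PHKG1 had their widest gap, 0.27, between 8.95 and 9.22, with 7 pigs below it (2 CON, 2 IM5 and 3 IM10) and 11 above. The pigs below it were replicates 1 and 6 of each group and IM10 replicate 2. Correlations within the sets of pigs below and above the gap were taken on log2 levels, not on deviations from the group mean. That of PHKG1 with PYGM was 0.79 below and 0.76 above. With PHKA1 it was 0.91 and 0.66, and with PGM1 0.74 and 0.63. The correlation with GBE1 was -0.37 below the gap and 0.02 above it. As the next widest gap was 0.26, these sets are not clearly separate clusters, and a split by PHKG1 itself narrows its range and so lowers these correlations by construction.

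**Figure D3:**
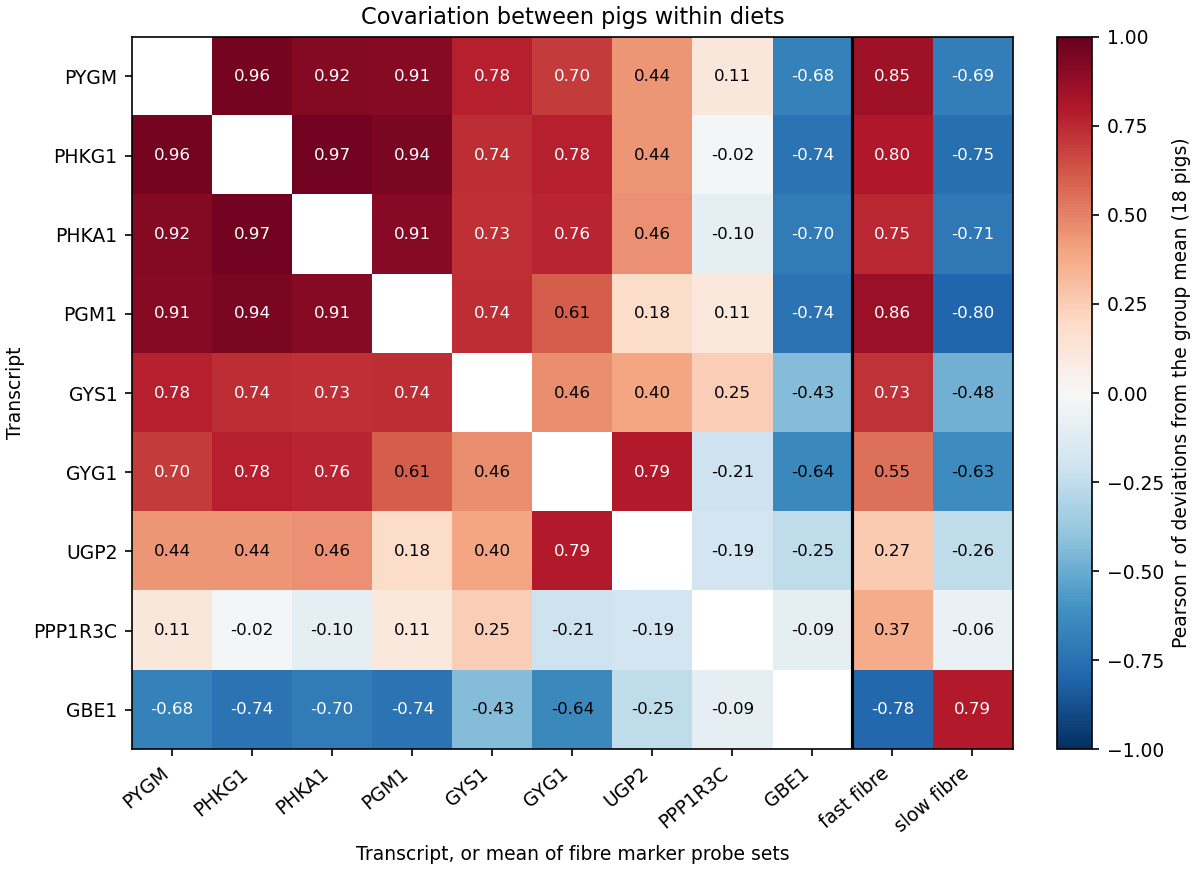
Pearson correlation (colour scale and printed values) of deviations from the group mean over 18 pigs, between the 9 glycogen genes and, to the right of the line, with the mean of the fast and of the slow fibre marker probe sets. PYGM, PHKG1, PHKA1, PGM1 and GYS1 form a positive block with r from 0.73 to 0.97, and GBE1 is negative to each of them.

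Markers of fibre type moved with most of these transcripts. Their relation to the glycogen enzymes was examined after the values had been seen. Of the fast fibre list, 4 of 8 genes had a probe set that the annotation assigns to that gene alone. These were the myosin heavy chain MYH1, the fast alpha-actinin ACTN3, the calcium pump ATP2A1 and the myosin-binding protein MYBPC2. Of the slow list, 5 of 8 genes had one (MYH7, MYL2, MYL3, MYOZ2 and TNNC1). Probe sets with no symbol or several were not searched for the rest. Over the 18 pigs the mean of the slow markers ran from 8.35 in CON replicate 2 to 11.97 in IM5 replicate 6, a range of 3.62 on the log2 scale. The mean of the fast markers ran the other way, from 11.86 in IM5 replicate 6 to 12.47 in CON replicate 2 (r = -0.79 between the lists). MYH1 departed from this mean, at 12.91 in IM5 replicate 6 and 12.95 in CON replicate 2. Its lowest level was 12.56 in IM5 replicate 5 and its highest 13.12 in IM10 replicate 6. Correlations with the fast list therefore do not hold for each of its markers. CON replicate 2 had the lowest GBE1 level of all 18 pigs, and IM5 replicate 6 the level of rank 2 from the top.

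GBE1 correlated with the slow markers at r = 0.79 (rho = 0.79, permutation p = 0.00037, adjusted p = 0.00277 over 45 pairs of genes and marker lists) and with the fast markers at r = -0.78 (rho = -0.82, adjusted p = 0.00169). Without the 2 farthest pigs these values were 0.73 and -0.80. The breakdown enzymes PYGM, PHKG1 and PHKA1 had the opposite signs, and so did PGM1 and the synthase GYS1. The correlation with the fast markers was 0.86 for PGM1, 0.85 for PYGM, 0.80 for PHKG1, 0.75 for PHKA1 and 0.73 for GYS1, each with an adjusted p below 0.05. With the slow markers GYS1 did not pass (r = -0.48, permutation adjusted p = 0.0883). UGP2 and PPP1R3C passed with neither fibre list. Below and above the gap in PHKG1, its correlation with the fast markers was 0.51 and -0.18. That of GBE1 with the slow markers was 0.31 and 0.66. These values by gap were again taken on log2 levels.

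The slow markers were also on average higher in the insect meal groups, by 0.53 between groups IM10 and CON, but the spread between pigs was wider, with an SD of 1.13 in group CON and 0.87 in group IM10. Their mean ranged from 8.35 to 11.28 over the CON pigs, from 9.51 to 11.97 over the IM5 pigs and from 9.34 to 11.87 over the IM10 pigs. In each group replicates 1 and 6 had the highest means. All 6 slow probe sets had a positive difference between groups IM10 and CON, from 0.46 to 0.62, with a smallest limma P of 0.176, and none was called. The fast markers ranged from 12.17 to 12.48, from 11.86 to 12.44 and from 11.99 to 12.42 in groups CON, IM5 and IM10. In a piece of whole muscle, fewer cells of a type and less RNA per cell cannot be told apart.

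With the mean of the slow markers as a covariate in the fit, the log2 difference of GBE1 between groups IM10 and CON was 0.28, and with the fast markers 0.33. Both values still passed the thresholds. Between groups IM5 and CON the differences were 0.26 and 0.25, which fell below the fold of 1.2, and for both insect meal groups against group CON they were 0.27 and 0.29, which passed. The difference of PHKA1 between groups IM10 and CON went from -0.33 to -0.19 with the slow and -0.23 with the fast markers, and that of PGM1 from -0.19 to -0.05 and -0.08.

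**Figure D4:**
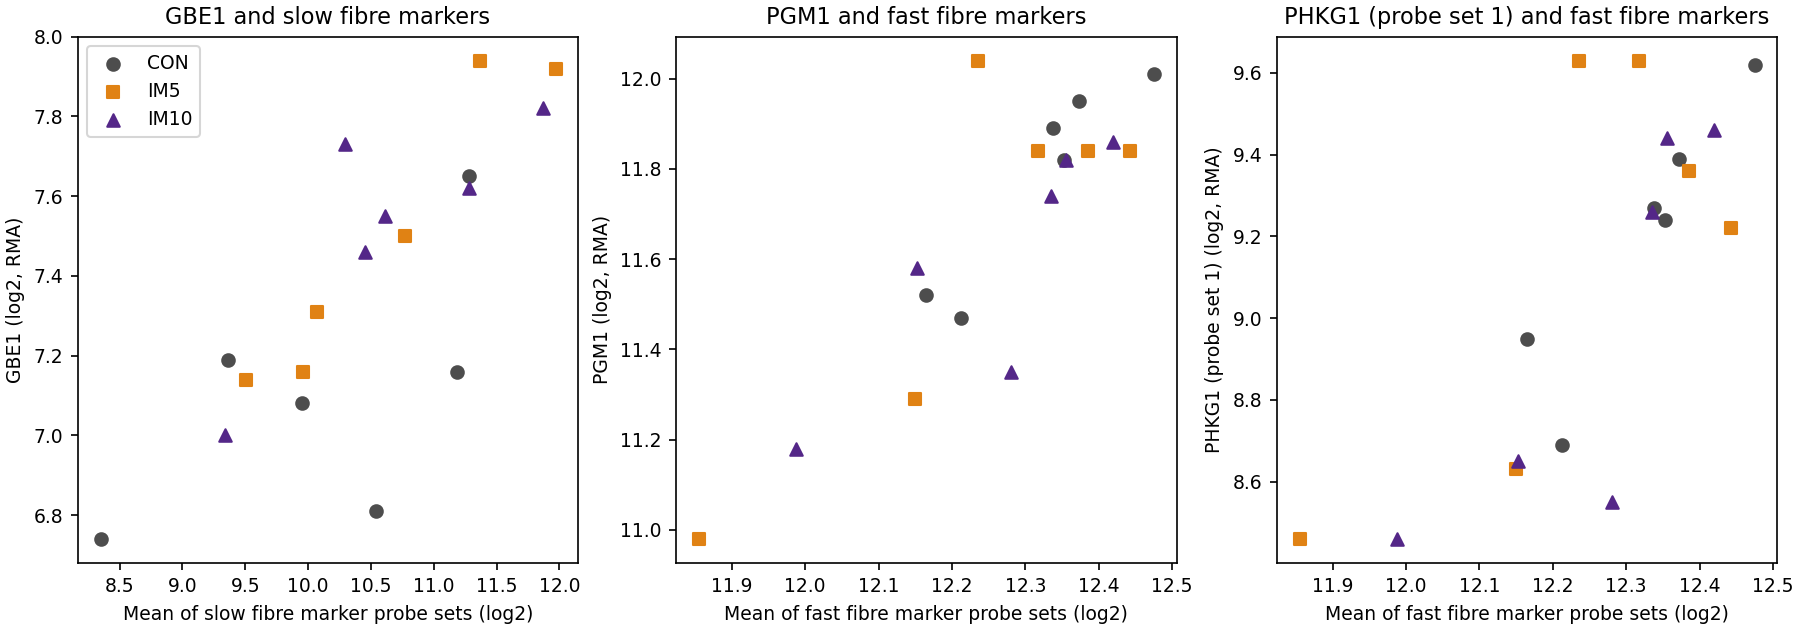
Log2 expression of GBE1 against the mean of the slow fibre markers, and of PGM1 and the first PHKG1 probe set against the mean of the fast fibre markers (log2, both axes), 1 point per pig with colour and shape for the diet group. GBE1 rises with the slow markers over their range from 8.35 to 11.97, and the pigs of the 3 groups are intermingled along it.

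Lists of other cell types also correlated with some members. The macrophage list correlated negatively with UGP2 (r = -0.76, adjusted p = 0.00784) and GYG1 (r = -0.70, adjusted p = 0.0165), at -0.57 and -0.58 without the 2 farthest pigs. Its mean was highest in a pig of group IM10, at 7.57, and ranged from 5.88 to 6.78 in group CON. PPP1R3C correlated with the adipocyte list (r = 0.73, adjusted p = 0.0101), an association of 0.96 in group IM5 and of 0.44 and 0.35 in groups CON and IM10. The endothelial list correlated at r = -0.76 with PGM1 (adjusted p = 0.0051), -0.72 with PHKA1 (0.0101) and -0.71 with PHKG1 (0.0113). With GBE1 it correlated at 0.59 (adjusted p = 0.0385). These signs were those of the slow markers, so the pattern was not particular to the fibre lists. None of the macrophage, adipocyte, endothelial or fibroblast probe sets was called between groups IM10 and CON. Of the immediate-early genes, which respond fast to stress and handling, 4 of 12 probe sets were called lower between groups IM10 and CON. Between groups IM5 and CON there were 3. Over all probe sets 1.17% and 1.01% were called lower. The list holds ATF3, BTG2 and JUN, which the study had reported as lower on these same arrays, so the counts are not independent evidence. A part of stress or handling was not tested. The mean of the list ranged from 6.43 to 6.79 over the CON pigs and from 5.76 to 6.53 over the IM10 pigs. The part of these cell types and genes in the levels of the glycogen enzymes was not tested.

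The transcripts most like GBE1 over the 18 pigs, of all probe sets with 1 other symbol, were STARD7 (r = 0.90), NCEH1 (r = 0.90) and RAPGEF5 (r = 0.89), by correlation of deviations from the group mean.

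Beyond these enzymes, a list of 45 further genes of glycogen metabolism and its control was examined, of which 30 were measured by 35 probe sets. HK2, the hexokinase that traps glucose in muscle as glucose 6-phosphate, was the 1 probe set called higher between groups IM10 and CON, and the remaining 34 did not pass. This share, 1 of 35, is close to the 2.29% over all probe sets and says nothing about the list. With both insect meal groups joined against group CON, HK2 was again the 1 call, where 1.42% of all probe sets were called. None was called between groups IM5 and CON or between groups IM10 and IM5. The median difference of the 35 was -0.02 between groups IM10 and CON.

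HK2 had a lowest, median and highest log2 level of 5.99, 6.47 and 6.79 in group CON, 6.32, 6.72 and 7.47 in group IM5, and 6.48, 6.84 and 7.05 in group IM10. All 6 IM10 pigs were above the CON mean, though the groups overlapped. The log2 difference between groups IM10 and CON was 0.34 (standard error 0.16, interval 0.01 to 0.68, limma adjusted p = 0.991). Between groups IM5 and CON it was 0.32 (interval -0.01 to 0.66), and with both insect meal groups against group CON 0.33 (interval 0.04 to 0.63). The call stands close to the threshold and was lost without any 1 of 8 pigs of groups CON and IM10 and with either fibre covariate.

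The isoforms that other tissues use did not pass either. The liver synthase GYS2 was among the dimmest 30% of probe sets, at 2.03 to 3.02. The liver phosphorylase PYGL lay between 7.31 and 7.78, with a log2 difference of 0.06 between groups IM10 and CON. For the liver phosphorylase kinase subunits PHKA2 and PHKG2 the difference was -0.05 in the former and -0.01 and 0.10 in the probe sets of the latter. PYGB and PHKB were not analysed here.

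Of the further genes, 6 of 35 probe sets (17.1%) correlated with PHKG1 at r = 0.7 or above, against 372 of 13247 (2.81%) of all other probe sets with 1 symbol. They are named here after their values were seen. PGM2L1, a relative of PGM1, had r = 0.93, the glycogen-binding protein STBD1 0.89, the muscle phosphatase targeting subunit PPP1R3A 0.86, the AMP-activated kinase subunit PRKAA2 0.83, the targeting subunit PPP1R3D 0.80 and the insulin receptor substrate IRS1 0.75. PPP1R3A ranged from 9.70 to 10.67 and STBD1 from 8.19 to 9.48. Of the liver isoforms, PHKA2 ran with GBE1 (r = 0.66) and against PHKG1 (r = -0.53). These correlations over pigs are descriptions, and the points share the same arrays.

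**Figure D5:**
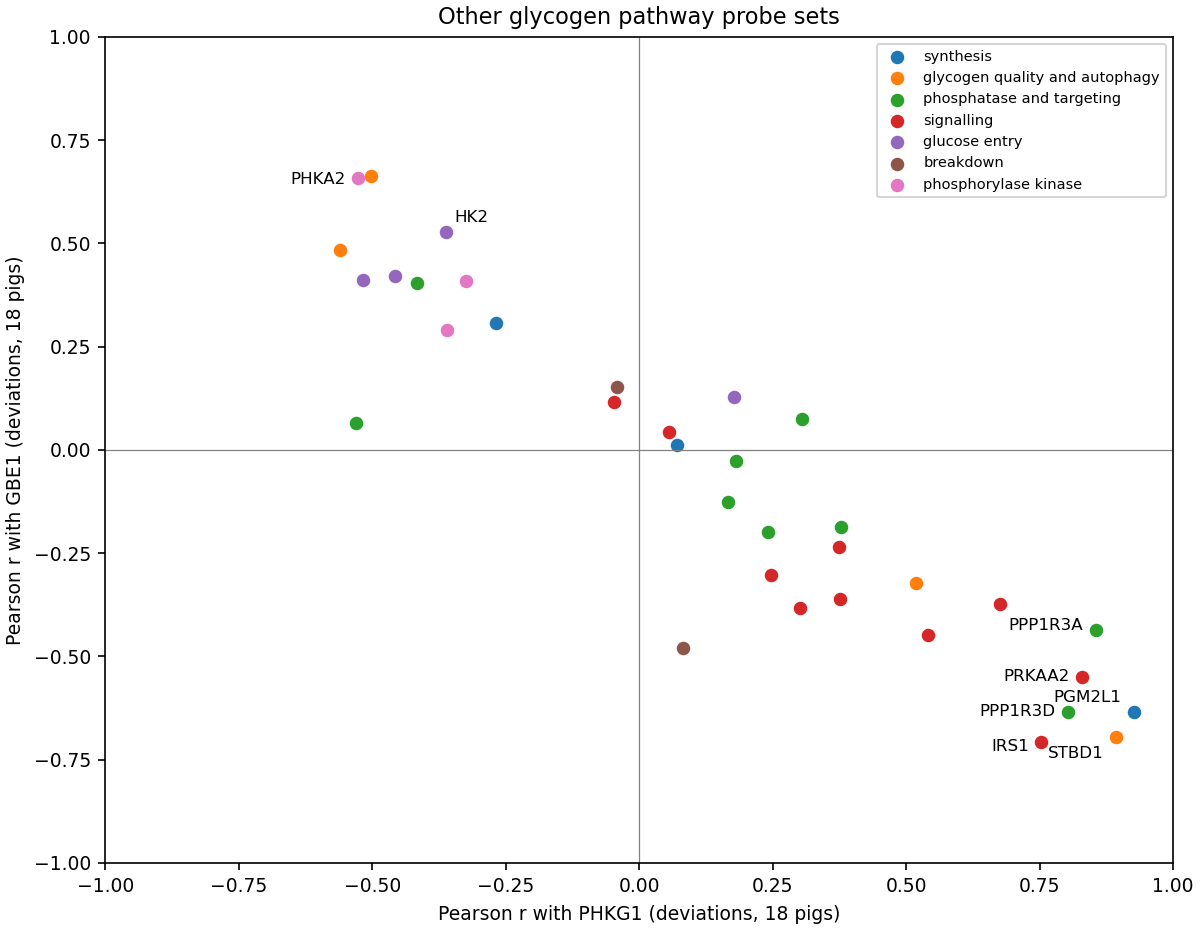
Pearson correlation over 18 pigs of each of the 35 further glycogen pathway probe sets with PHKG1 (horizontal axis) and with GBE1 (vertical axis), as deviations from the group mean, coloured by the list the gene belongs to. Probe sets that follow PHKG1 most closely, PGM2L1 at 0.93 and STBD1 at 0.89, are negative to GBE1, and HK2 and PHKA2 lie at the opposite corner.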

How the data were processed

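RNA from the gastrocnemius of 18 pigs (6 each in groups CON, IM5 and IM10) was measured by the authors on Affymetrix porcine gene arrays. The deposited values are log2 expression values from RMA, made by the authors in Affymetrix Expression Console according to the submitters' processing notes; its version is not given in the sources used here. They carry 2 decimals for 25388 probe sets and were used without further normalization. RMA forces all arrays to 1 distribution, so a shift of all transcripts together cannot be seen, and the precision is set by how few arrays there are.

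Of the probe sets, 13257 had 1 gene symbol in the array annotation, 427 several and 11704 none, and for all 10 glycogen enzyme probe sets the gene record had the same symbol. No sequence or coordinate was used here.

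Group means of the 18 arrays were fitted with limma 3.58.1 (R 4.3.3), and P below 0.05 with a fold beyond 1.2, as in the methods, defined a call. Adjustment was by Benjamini-Hochberg over all probe sets at 0.05. GBE1 was tested again by exact permutation over 924 arrangements of 2 groups, or 18564 with both insect meal groups joined. Correlations used 1 probe set per gene, that with the highest mean. The named genes were all members, each called gene and the isoforms of the members in the pathway lists, the 3 transcripts most like a called member, and the reference genes, of which RPS9 and SDHA were not analysed here. The members and lists were chosen with earlier results of these data known. Probe sets of a gene with identical values on all arrays (ACTN3) counted once. Alternatives were the methods' t-test, fits of 2 groups, the replicate number as a block, no dim probe sets, a trended robust prior, array weights, median centring, renewed quantile normalization, 1 probe set per gene and leaving out each pig. The fibre covariates and marker correlations were added after the values were seen. The fit was tested on simulated data. The liver arrays and the qPCR were not analysed here. Counts, permutations and plots used scipy 1.17.1, numpy 2.4.6, pandas 2.3.3 and, for figures, matplotlib 3.10.9 (Python 3.11.15).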

Additional observations from a re-analysis of the deposited data

Results flagged for a closer look

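In a pair of the liver isoforms, 1 pig of group CON stood far from the others of its group. The lowest value of the first PHKG2 probe set was 4.17 in CON replicate 2, with the next pig at 4.52, a gap of 0.729 of the range of the group. The highest value of GYS2 was 3.02 in CON replicate 4, with the next pig at 2.64, a gap of 0.745 of the range, in a probe set among the dimmest 30%. Both exceed Dixon's 95% critical value for groups of 6. Chance gives about 1 such case in 20 groups, or 3.15 among the 63 groups tested, and 2 were found. None of the 10 glycogen enzyme probe sets was among them.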

How the results depend on the processing

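Over all alternatives, 842 of 846 results for the members other than GBE1 kept their side of the thresholds, and 926 of 940 with GBE1 included. The count of glycogen enzymes called between groups IM10 and CON was 2 with the replicate number as a block, where PHKA1 joined GBE1 (-0.33), and 0 to 2 when single pigs were left out, with GYS1 called without IM10 replicate 3 (-0.27). Between groups IM5 and CON it was 0 with the methods' t-test, where the difference of GBE1 was 0.39, 0 with the fast and 0 with the slow fibre covariate (0.25 and 0.26), and 0 to 1 without single pigs. It stayed at 1 without any single pig for both insect meal groups against group CON and at 0 between groups IM10 and IM5. The difference of GBE1 without single pigs was 0.35 to 0.53, 0.30 to 0.50 and 0.33 to 0.52 for IM10, IM5 and both against CON. Of the further pathway genes, 0 were called between groups IM10 and CON with array weights, median centring, the replicate block or either fibre covariate, and 0 with either covariate for both insect meal groups against CON. Between groups IM10 and IM5, 1 was called with the replicate block or either covariate. Without single pigs these counts were 0 to 1, 0 to 1, 0 to 2 and 0 to 1 for IM10 and IM5 against CON, IM10 against IM5, and both against CON. Over all probe sets the counts were 582, 532, 698 and 361 in the same order, 354, 282, 394 and 200 without the dimmest 30%, where fewer probe sets were tested, and 351 with the methods' t-test between groups IM5 and CON, where the cause was not tested. The labels do not say whether a shared replicate number relates pigs of different groups. Deviations of same-numbered pigs correlated at r = -0.17 to 0.42, with 6 of 18 pairs over 0.1. The values were highest for number 1 (0.30, 0.40 and 0.42), and 5 of 18 pigs were most like a pig of their own number. Replicates 1 and 6 also had the lowest PHKG1 and the highest slow marker levels of each group. The block results cannot be read as a pairing, and structure by replicate number in these transcripts was not tested. With 6 pigs per group, most intervals for single genes reach beyond 0.25 on the log2 scale, and changes of that size or less were mostly not detectable.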
